A study of Mus musculus with 9 samples.

Results

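The formyl peptide, complement and lipid chemoattractant receptors described here are 8 genes chosen by name, namely Fpr1, Fpr2, C5ar1, C3ar1, Ptafr, Ltb4r1, Hcar2 and Gpr84, and every probe set that the platform annotation gives to exactly 1 of them was taken. Of the 8 genes, 7 had at least 1 such probe set, 11 probe sets in all, among 18194 genes measured. Fpr1 had none and was not analysed here.

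RNA came from 3 populations of normal bone marrow cells of C57BL/6 mice, males or females 4 to 10 weeks old, with 3 Affymetrix arrays per population and 9 in all. Mac1lo cells (c-kit+ Gr1+, with Mac1 low or absent, written MAC1- in the titles) and Mac1+ cells (c-kit+ Gr1+ Mac1+) were sorted as cells without the lineage antigens B220, TER119, CD3, CD4, CD8 and IL7Rα, and the labels call both myeloblasts or undifferentiated cells by their cytology. Neutrophils were c-kit- Gr1+ Mac1+ and are called mature. No population was treated or carried a transgene, and nothing in the labels says that arrays of a population came from separate mice, so p-values measure only the spread between these arrays, which may be technical.

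All of these genes encode receptors with the fold of G protein-coupled receptors that can signal through the Gi class of G proteins. Binding of the ligand frees G protein subunits that activate phosphoinositide 3-kinase gamma and phospholipase C beta, and in neutrophils this drives directed movement, degranulation and the respiratory burst. Receptor kinases and arrestins then switch the receptor off. Formyl peptide receptors sense peptides of bacteria and mitochondria, C5ar1 and C3ar1 sense the complement fragments C5a and C3a, Ltb4r1 senses leukotriene B4, Ptafr senses platelet-activating factor, Hcar2 senses niacin and the ketone body beta-hydroxybutyrate, and Gpr84 senses medium-chain fatty acids.

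The 250 bases before the transcription start are shown for C5ar1, Fpr2 and Gpr84, the genes of the group with the largest differences between Mac1lo and Mac1+ cells. The sequences are RefSeq's, of the build GRCm38.p6, at chr7:16259339-16259588 (- strand), chr17:17887574-17887823 (+ strand) and chr15:103310439-103310688 (- strand), and run 5′ to 3′ toward the start. Capitals mark matches, on either strand, to GAGGAA (the core of a PU.1 site), TTNNGNAA or TTGCGCAA (C/EBP sites, the latter a special case of the former) or GGGGCGGGG (a GC box). PU.1 and C/EBP factors are transcription factors of myeloid cells.
C5ar1: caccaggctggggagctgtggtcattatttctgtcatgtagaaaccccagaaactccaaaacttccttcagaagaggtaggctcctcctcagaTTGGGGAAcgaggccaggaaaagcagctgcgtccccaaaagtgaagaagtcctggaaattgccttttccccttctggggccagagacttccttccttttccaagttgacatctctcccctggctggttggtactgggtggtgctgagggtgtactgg
Fpr2: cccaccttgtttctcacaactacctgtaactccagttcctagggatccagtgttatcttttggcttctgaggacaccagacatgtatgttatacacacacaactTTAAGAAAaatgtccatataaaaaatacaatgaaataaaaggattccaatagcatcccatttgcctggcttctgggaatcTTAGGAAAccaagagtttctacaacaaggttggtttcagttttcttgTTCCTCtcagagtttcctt
Gpr84: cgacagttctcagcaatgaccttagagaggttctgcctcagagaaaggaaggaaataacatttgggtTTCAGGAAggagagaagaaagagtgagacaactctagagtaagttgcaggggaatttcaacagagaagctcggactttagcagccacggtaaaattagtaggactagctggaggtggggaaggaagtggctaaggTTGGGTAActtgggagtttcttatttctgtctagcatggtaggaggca
The C5ar1 window held 1 match to TTNNGNAA, the Fpr2 window 2 such matches and 1 to GAGGAA, and the Gpr84 window 2 matches to TTNNGNAA. Of the 8 genes 7 had a promoter entry, all but Hcar2. Among these 7 windows 4 held TTNNGNAA, 3 held GAGGAA, 2 held GGGGCGGGG and 0 held TTGCGCAA. Among 32851 promoter windows of the same length the shares were 36.8%, 23.3%, 10.4% and 0.164%. In gene order Fpr1 and Fpr2 are neighbours, C5ar1 lies beside C5ar2, Ltb4r1 beside Ltb4r2 and Hcar2 beside Hcar1.

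The sort antigen genes Kit and Itgam followed the labels. Kit, which encodes c-kit, was called lower in neutrophils than in Mac1+ cells, and Itgam, the alpha chain of Mac1, rose at each step. Cxcr2, a chemokine receptor of late neutrophils, rose by 4.85 ± 0.15 from Mac1+ cells to neutrophils. The 15 listed sort and stage markers went both ways. From Mac1lo to Mac1+ cells 8 were called higher, 1 lower and 6 did not pass. Over all genes 6.31% were called higher and 5.51% lower there. At the later step 4 were called higher, 6 lower and 5 did not pass, where 19.7% of all genes were higher and 28.4% lower. The granule protein genes Ltf, Camp and Ngp stood at 13.71, 13.85 and 14.03 in Mac1+ cells on the log2 scale. In neutrophils they stood at 13.58, 13.64 and 13.80. Elane, Mpo, Prtn3 and Ctsg did not pass between Mac1lo and Mac1+ cells. Neutrophil array 1 stood apart: its correlation with the other neutrophil arrays over all genes was 0.9402 and 0.9261, against 0.9859 between those. It also held more of the transcripts of early granule proteins, with Mpo at 7131.9 against 1712.3 and 777.5. Its Kit was the lowest of the neutrophil arrays, at 94.9 against 295.4 and 331.4. The low end of this array was raised, with a median intensity of 61.7, against 39 to 45.3 on the others. The part of this shift in its readings of dim genes was not tested. The differences of the receptor genes and the counts over all genes were therefore also computed without neutrophil array 1. No such values are given for genes of the other lists or for the dimmer probe sets of a receptor. In bulk RNA, fewer cells of a type and less RNA per cell cannot be told apart.

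Values are array intensities, and differences are on the scale of log2(intensity + 16) with their standard error, which understates the change of dim genes. No flag for detection was among the values, so the probe sets of odorant receptors, genes of the nose, served as a scale for background. The 95th percentile of the 44 such probe sets lay between 37.1 and 64.1 on the 9 arrays, and a value at or under it on its own array is called dim. Apart from this scale, the bounds taken from it and the choice of a gene's brightest probe set, intensities of different probe sets were not compared. Such bounds assume that probe sets share a background.

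From Mac1lo to Mac1+ cells 4 of the 7 measured receptor genes were called higher (adjusted p under 0.05) and 0 lower, where 6.31% of all genes were called higher and 5.51% lower. Those 4 were C5ar1, Fpr2, Gpr84 and Ltb4r1, and in the same 4 the populations did not overlap, where 19.8% of all genes were higher without overlap. From Mac1+ cells to neutrophils 4 of 7 were called higher (Hcar2, Fpr2, C5ar1 and C3ar1), where 19.7% of all genes were called higher and 28.4% lower, and 5 of 7 were higher without overlap (23.7% of all genes were). Between Mac1lo cells and neutrophils 6 of 7 were called higher, all but Ptafr, where 22.6% of all genes were called higher and 30% lower, and the same 6 were higher without overlap (26.5% of all genes were). The median difference of the 7 genes was 1.70, 1.08 and 2.74 in these comparisons, beside -0.01, 0.05 and 0.05 over all genes. These comparisons share arrays and are not independent.

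**Figure D1:**
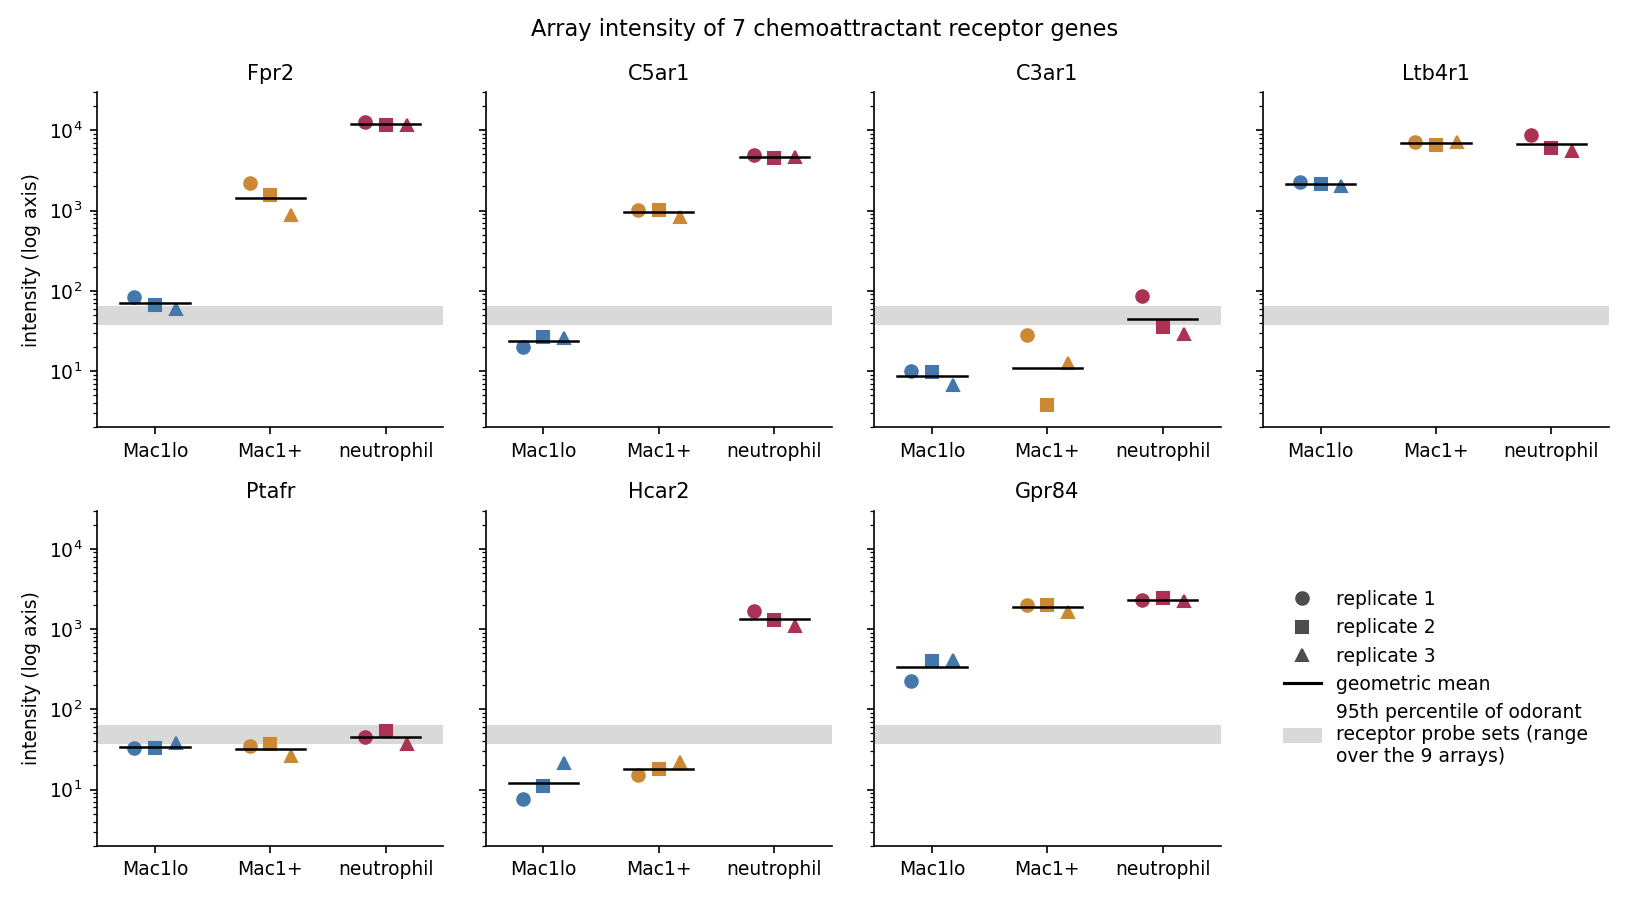
Intensity of 7 receptor genes on each array (log axis), with 1 panel per gene and 1 column per population. Points are arrays, lines are geometric means, and the grey band spans the 95th percentile of odorant receptor probe sets over the 9 arrays. Fpr2 and C5ar1 climb at each step, Ltb4r1 and Gpr84 mostly between Mac1lo and Mac1+ cells, Hcar2 between Mac1+ cells and neutrophils, and the points of C3ar1 and Ptafr lie in or under the band on most arrays.

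Fpr2, a formyl peptide receptor that also binds annexin A1 and cathelicidin peptides, had intensities of 84.8, 66.7 and 59.8 on the Mac1lo arrays. On the Mac1+ arrays it read 2208.1, 1552.5 and 886.9, and on the neutrophil arrays 12756.7, 11599.8 and 11477.5. The 3 ranges did not overlap, and on the log2 scale the Mac1+ arrays spread the most (SD 0.66, against 0.21 in Mac1lo cells and 0.08 in neutrophils). Fpr2 was 17.1-fold higher in Mac1+ than in Mac1lo cells (difference 4.09 ± 0.29, adjusted p = 3.28e-05) and 8.15-fold higher in neutrophils than in Mac1+ cells (3.03 ± 0.29, adjusted p = 2.56e-05). Over the whole range it was 139.2-fold higher in neutrophils than in Mac1lo cells (7.12 ± 0.29, adjusted p = 9.91e-08). Without neutrophil array 1 the last difference was 7.07. The Mac1lo readings lay not far above the limit for dim values on those arrays (54.4, 42.8 and 48.6). Both differences from Mac1lo cells thus depend on background and on the offset.

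C5ar1, the main receptor for C5a, read 20, 26.6 and 25.6 in Mac1lo cells on its brighter probe set, dim on all 3 arrays. In Mac1+ cells it read 1015, 1025.2 and 841.2, and in neutrophils 4952.9, 4559 and 4638.8. The populations were well apart, with arrays of a population close to each other. The difference was 4.61 ± 0.14 between Mac1+ and Mac1lo cells (adjusted p = 8.39e-07) and 2.28 ± 0.14 between neutrophils and Mac1+ cells (adjusted p = 1.58e-06). Because the Mac1lo level is only a bound, the brighter signal was set against the odorant receptor limit of each array. By that measure this probe set was at least 19.8-fold higher in Mac1+ than in Mac1lo cells and at least 97.5-fold higher in neutrophils than in Mac1lo cells.

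The other probe set of C5ar1 divided the rise differently. It read 23.2, 25.8 and 23.7 in Mac1lo cells, 104.3, 104.9 and 70.2 in Mac1+ cells, and 487.1, 1139.2 and 1487.5 in neutrophils. The order of the populations was the same and they did not overlap, but neutrophil array 1 was the lowest of its population here and the highest on the other probe set. The difference was 1.42 ± 0.36 at the earlier step (adjusted p = 0.0503 over all probe sets) and 3.15 ± 0.36 at the later (adjusted p = 9.76e-05). Between Mac1lo cells and neutrophils it differed 23.8-fold on the scale with the offset, against 118.4-fold for the brighter probe set. The size of the whole rise of C5ar1 and of its early part, and which step is larger, thus depend on the probe set.

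C3ar1, the receptor for C3a, stayed near background. Its brightest probe set read 9.89, 9.75 and 6.62 in Mac1lo cells, 27.8, 3.81 and 12.5 in Mac1+ cells, and 86.5, 35.3 and 28.8 in neutrophils. Only neutrophil array 1 exceeded the odorant receptor limit. The later step was called (1.08 ± 0.36, adjusted p = 0.0325), but not without neutrophil array 1 (0.72, adjusted p = 0.0675), without Mac1+ array 2 (0.81, adjusted p = 0.119) or with the mean of its 3 probe sets (0.14, adjusted p = 0.707). The difference between neutrophils and Mac1lo cells was 1.32 ± 0.36 (adjusted p = 0.012), 0.96 without neutrophil array 1 (adjusted p = 0.0208), and 0.58 with the mean of the probe sets (adjusted p = 0.116). Its remaining probe sets differed by -0.05 ± 0.37 and -0.61 ± 0.25 at the later step (adjusted p = 0.926 and 0.081 over all probe sets). A rise of C3ar1 in neutrophils thus rests on 1 dim probe set.

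**Figure D2:**
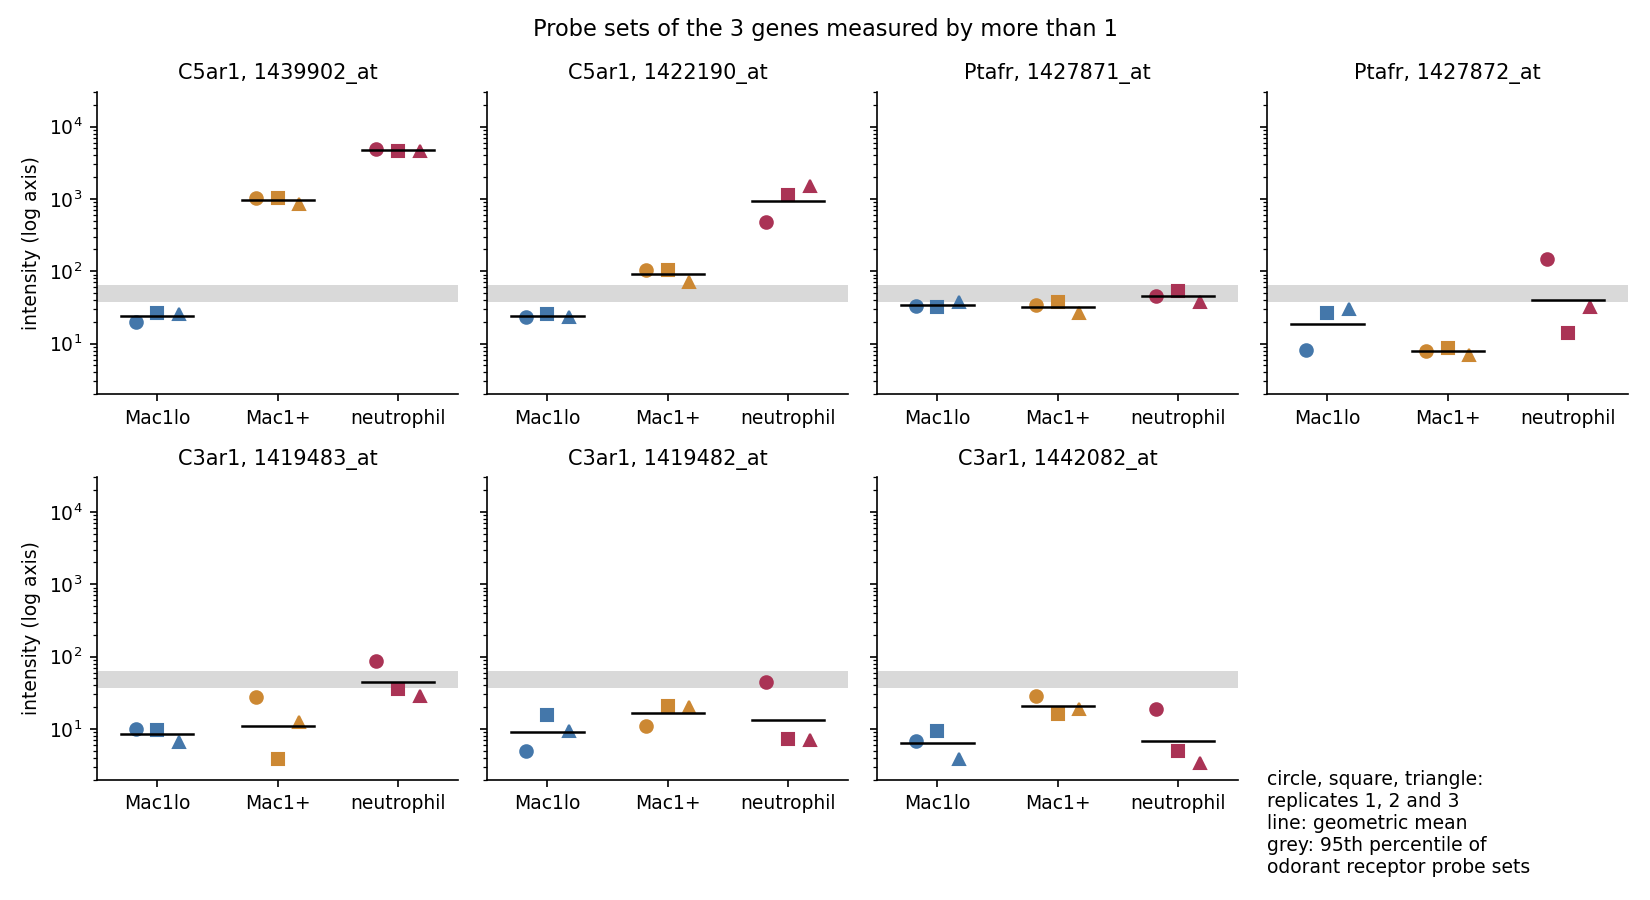
Intensity on each array (log axis) for every probe set of C5ar1, Ptafr and C3ar1, the genes measured by more than 1. The grey band spans the 95th percentile of odorant receptor probe sets. The C5ar1 probe sets order the populations alike but place Mac1+ cells at different heights, while those of Ptafr and C3ar1 lie in or under the band except on neutrophil array 1.

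Ltb4r1, the high-affinity receptor for leukotriene B4, was bright in every population. It read 2240.4, 2146 and 2027.5 in Mac1lo cells, 7124.8, 6630.1 and 7238 in Mac1+ cells, and 8796.3, 6100.0 and 5593 in neutrophils. Mac1+ cells and neutrophils overlapped, and both lay above every Mac1lo array. The gene rose 3.26-fold from Mac1lo to Mac1+ cells (1.70 ± 0.18, adjusted p = 0.000347), and the later difference was -0.06 ± 0.18 (95% interval -0.48 to 0.35, adjusted p = 0.802). The sign of the latter was not stable: it was 0.24 with quantile normalization and -0.26 without neutrophil array 1, and no setting tried called it.

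Ptafr, the receptor for platelet-activating factor, was dim on most arrays. Its brighter probe set read 33, 32.5 and 37.9 in Mac1lo cells, 34.7, 37.4 and 26.4 in Mac1+ cells, and 45.8, 54.1 and 37.2 in neutrophils. The populations overlapped and no comparison passed (neutrophils against Mac1lo cells 0.28 ± 0.16, 95% interval -0.08 to 0.65, adjusted p = 0.171). On its other probe set neutrophil array 1 read 147.9, against 13.9 and 32.1 on the other neutrophil arrays and 7.03 to 8.84 in Mac1+ cells. The mean of the probe sets passed at the later step (0.85, adjusted p = 0.034).

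Hcar2, the receptor for niacin and beta-hydroxybutyrate, was dim in both c-kit+ populations and bright in neutrophils. It read 7.61, 11 and 21.6 in Mac1lo cells, 15.4, 17.9 and 21.8 in Mac1+ cells, and 1681.3, 1289.3 and 1106.8 in neutrophils. The c-kit+ populations overlapped, whereas every neutrophil array lay far above both. The difference was 0.25 ± 0.22 at the earlier step (95% interval -0.25 to 0.75, adjusted p = 0.654) and 5.31 ± 0.22 at the later (adjusted p = 1.61e-07). Set against the odorant receptor limit, Hcar2 was at least 31.2-fold higher in neutrophils than in Mac1+ cells and at least 27.7-fold higher than in Mac1lo cells. Without neutrophil array 1 the later difference was 5.14.

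Gpr84, the receptor for medium-chain fatty acids, read 223.3, 397.9 and 417.3 in Mac1lo cells, 1990.5, 1985.5 and 1651.4 in Mac1+ cells, and 2308, 2417.2 and 2226 in neutrophils. All 3 ranges were apart, the later pair narrowly. It rose 5.38-fold from Mac1lo to Mac1+ cells (2.43 ± 0.23, adjusted p = 0.000155). The later difference did not pass (0.31 ± 0.23, 95% interval -0.21 to 0.83, adjusted p = 0.302).

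**Figure D3:**
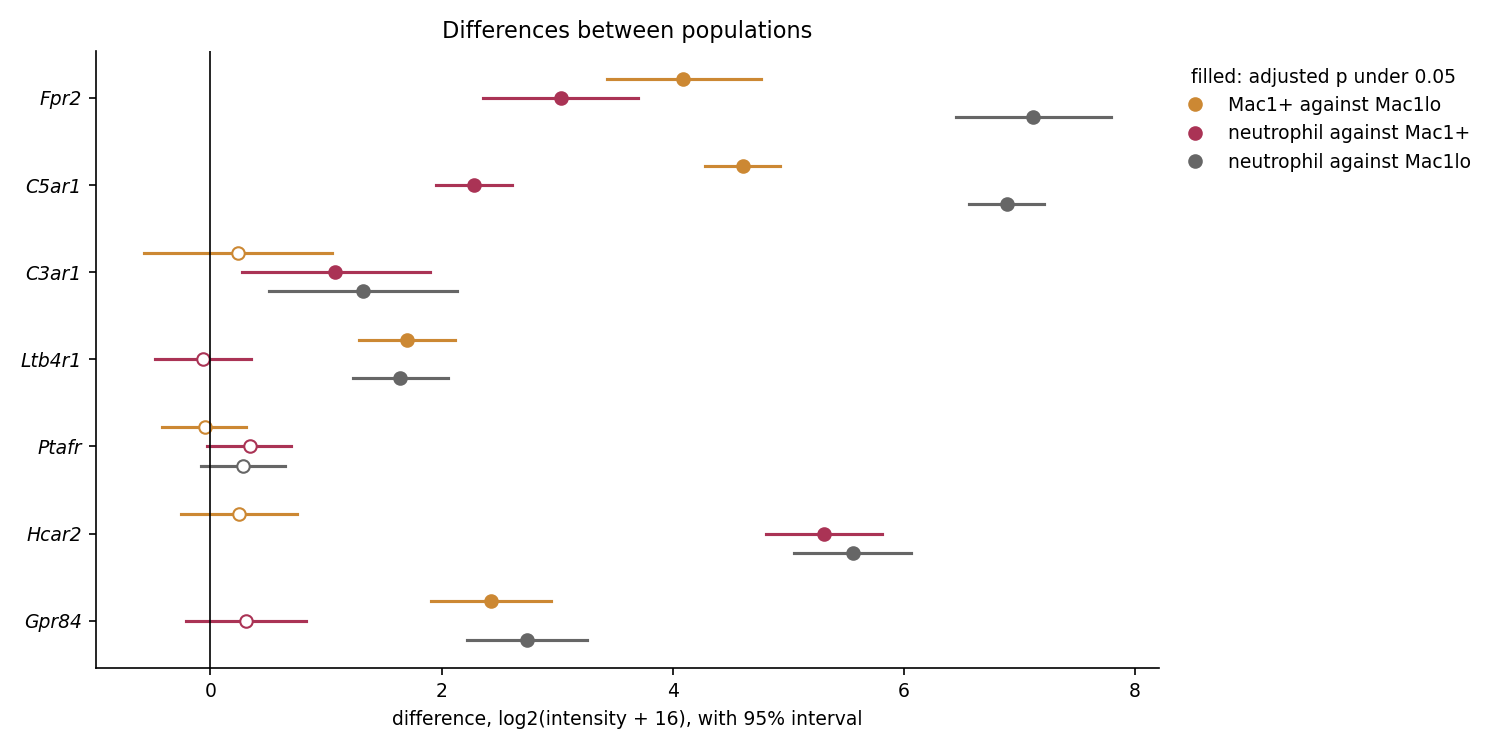
Difference between populations for each receptor gene on the scale of log2(intensity + 16), with 95% intervals from the fit. Filled points passed an adjusted p of 0.05. Hcar2 has its large difference between neutrophils and Mac1+ cells (5.31), and Ltb4r1 and Gpr84 between Mac1+ and Mac1lo cells (1.70 and 2.43).

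Whether the later step differed from the earlier was tested for each gene as the later difference minus the earlier. Of the 7 genes 1 was called higher (9.44% of all genes were) and 3 lower (20.3% of all genes were). For Hcar2 the later step exceeded the earlier by 5.06 ± 0.38 (adjusted p = 1.89e-05). For Gpr84 and Ltb4r1 the later step was the smaller (-2.12 ± 0.40, adjusted p = 0.00328, and -1.77 ± 0.32, adjusted p = 0.00262). C5ar1 was called with a smaller later step on its brighter probe set (-2.32 ± 0.25, adjusted p = 0.000136). That call was lost with the mean of both probe sets (-0.30, adjusted p = 0.587), and the dimmer probe set alone gave 1.73 ± 0.63 (adjusted p = 0.0886 over all probe sets). For Fpr2 the steps did not differ past the threshold (-1.07 ± 0.51, 95% interval -2.23 to 0.09, adjusted p = 0.161), but did without Mac1+ array 3, the array with the lowest Fpr2 of its population (-1.77, adjusted p = 0.0127). Of the rise from Mac1lo cells to neutrophils on the log2 scale, 88.8% lay at the earlier step for Gpr84 and 57.5% for Fpr2. The share for Fpr2 rests on Mac1lo readings not far above the limit for dim values. No such share is given for C5ar1 and Hcar2, which were dim in Mac1lo cells.

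The likeness of the profiles was described by Pearson's r over the 9 arrays. These fall into 3 populations, so that a high r can reflect a shared order and spacing of the populations. Among the receptor genes r was highest between Fpr2 and C5ar1 (0.99) and between C5ar1 and Gpr84 (0.961), and lowest between Ptafr and Ltb4r1 (0.25). Each gene entered by its brightest probe set alone. The other probe set of C5ar1, which divided its rise differently (1.42 and 3.15 at the steps), was not correlated. Among 8164 other genes whose populations spanned at least 1 on the log2 scale, Fpr2 was most like Plbd1 (0.9980), Ifitm6 (0.9979) and Ear3 (0.9975). C5ar1 was most like Cd300lf (0.9995), an inhibitory receptor of myeloid cells, Fgr (0.9993), a Src-family kinase, and Reck (0.9979). For Hcar2 the nearest were Cln3, Sstr4 and Cd300ld (0.9979, 0.9979 and 0.9978), for Ltb4r1 Pde2a, Clec4a2 and Agpat2 (0.9972, 0.9951 and 0.9925), and for Gpr84 Card10, Megf9 and Itgb2l (0.9892, 0.9891 and 0.9883). The dim genes had lower values, with C3ar1 nearest to Tmem150c, Ikzf4 and Cr2 (0.9793, 0.9672 and 0.9653) and Ptafr to Osr2, Serpinb1b and Fmo1 (0.9325, 0.8958 and 0.8859). C3ar1 and Ptafr were dim on most arrays, and the part of background readings, such as those on neutrophil array 1, in their r was not tested.

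Ligands of these receptors and enzymes that make or degrade them were described from a list of 18 genes, 17 of them measured. From Mac1lo to Mac1+ cells 5 were called higher, 2 lower and 10 did not pass, and from Mac1+ cells to neutrophils 4 were higher, 7 lower and 6 did not pass. The list's median was 0.39 and then -0.13, beside -0.01 and 0.05 over all genes. Of all genes 6.31% were called higher and 5.51% lower at the earlier step, and 19.7% and 28.4% at the later. The same shares and medians apply to the lists that follow. Alox5, the 5-lipoxygenase that starts leukotriene synthesis, rose at both steps (2.82 ± 0.28 and 1.81 ± 0.28), as did Lpcat2, which makes platelet-activating factor (2.06 ± 0.14 and 2.36 ± 0.14). Camp, the cathelicidin that yields an Fpr2 ligand, rose by 4.21 ± 0.26 at the earlier step (adjusted p = 1.48e-05). Hc, which encodes complement C5, rose by 3.44 ± 0.22 at the later (adjusted p = 1.71e-06), and Cfp, properdin of the alternative pathway, by 2.41 ± 0.16 (adjusted p = 2.21e-06) after falling at the earlier step. The 7 called lower at the later step were Lta4h, Pla2g4a, Lpcat1, Pafah1b2, Pafah1b3, Pafah2 and Saa3 (-0.74 to -1.79).

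Related receptors for chemoattractants, lipids and metabolites went both ways. Of 23 listed 18 were measured, with 2 higher, 3 lower and 13 not passed at the earlier step, and 5 higher, 2 lower and 11 not passed at the later (medians -0.10 and 0.30). Ffar2, a receptor for short-chain fatty acids, rose by 2.35 ± 0.14 from Mac1lo to Mac1+ cells (10.11 ± 0.15 to 12.46 ± 0.07, adjusted p = 1.16e-05) and then fell to 11.18 ± 0.09 in neutrophils (-1.28 ± 0.14, adjusted p = 5.48e-05). Gpr35 fell by 1.46 ± 0.24 at the earlier step (adjusted p = 0.00422) and rose by 3.23 ± 0.24 at the later (adjusted p = 4.63e-06). P2ry6, a receptor for UDP, rose by 3.53 ± 0.59 at the later step (adjusted p = 0.00087), with a wide spread among the neutrophil arrays (SD 1.43). Hcar1, the lactate receptor that neighbours Hcar2, did not pass in any of these comparisons and stood at 4.34, 4.39 and 4.61 in Mac1lo cells, Mac1+ cells and neutrophils.

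Among 17 measured subunits of heterotrimeric G proteins, 1 was higher, 2 lower and 14 not passed at the earlier step, and 4 were higher, 4 lower and 9 not passed at the later (medians 0.06 and 0.02). Gnai2, the main Gi subunit of leukocytes, stood at 13.27, 13.53 and 13.47 in Mac1lo cells, Mac1+ cells and neutrophils and passed in no comparison. Gng2, a gamma subunit, fell by 2.55 ± 0.34 and then rose by 3.14 ± 0.34 (adjusted p = 0.00126 and 5.26e-05). Gna12 fell by 2.17 ± 0.27 at the later step (adjusted p = 0.000119).

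Effectors downstream of the receptors counted 19 measured, with 8 higher, 1 lower and 10 not passed at the earlier step and 10 higher, 0 lower and 9 not passed at the later (medians 0.42 and 0.68). Between Mac1lo cells and neutrophils 14 were higher and 5 did not pass, where 22.6% of all genes were called higher and 30% lower. Prex1, a Rac activator driven by G protein subunits, fell by 1.70 ± 0.17 at the earlier step (adjusted p = 0.000215) and rose by 3.66 ± 0.17 at the later (adjusted p = 2.63e-07). Pik3r5, a regulatory subunit of phosphoinositide 3-kinase gamma, rose at both (1.47 ± 0.17 and 1.89 ± 0.17), whereas its catalytic subunit Pik3cg stood at 10.17 and 10.27 in the c-kit+ populations and rose by 1.64 ± 0.14 in neutrophils (adjusted p = 1.1e-05). Prkcb, a protein kinase C, rose by 2.30 ± 0.15 at the earlier step (adjusted p = 1.81e-05).

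Genes that switch off the receptors or their G proteins counted 11 measured. At the earlier step 5 were higher, 1 lower and 5 not passed, and at the later 7 higher, 1 lower and 3 not passed (medians 0.25 and 1.05). Every one of the 11 passed between Mac1lo cells and neutrophils, 9 higher and 2 lower. In that comparison 22.6% of all genes were called higher and 30% lower. Arrb2, an arrestin, rose at both steps (1.96 ± 0.20 and 1.08 ± 0.20, adjusted p = 0.000237 and 0.00155). The receptor kinases diverged at the later step, where Grk5 rose by 3.77 ± 0.36 (adjusted p = 2.17e-05) and Grk3 fell by 3.54 ± 0.29 (adjusted p = 8.75e-06). Rgs14, a regulator that speeds the turning off of Gi, rose at both steps (1.36 ± 0.13 and 1.65 ± 0.13).

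**Figure D4:**
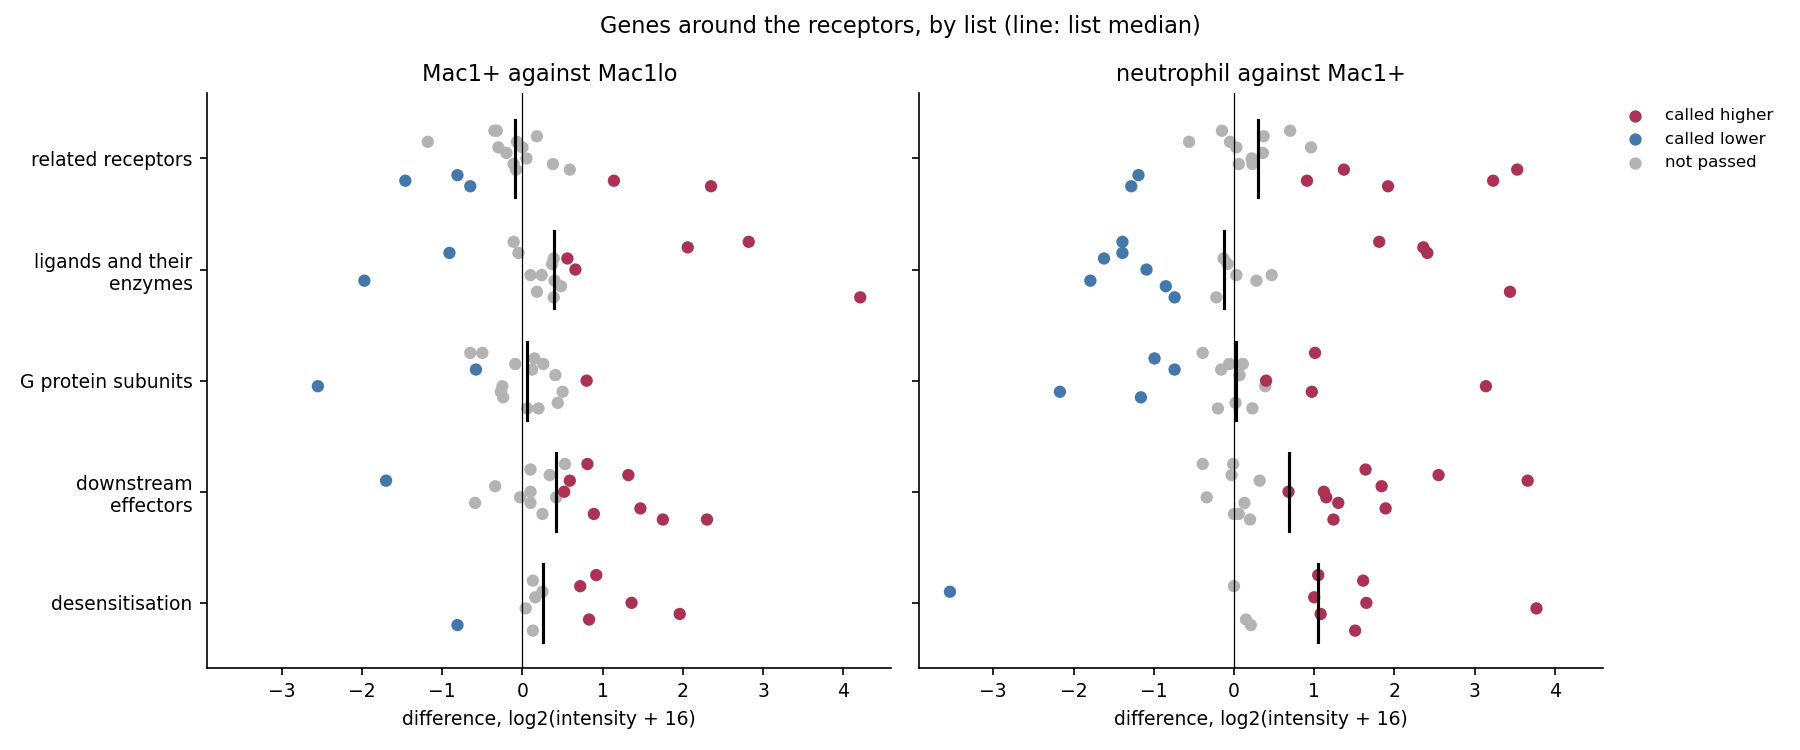
Differences on the scale of log2(intensity + 16) for genes around the receptors, by list, from Mac1lo to Mac1+ cells (left) and from Mac1+ cells to neutrophils (right). Each point is a gene, coloured by its call, and black lines are list medians. The medians of the downstream effectors and of the desensitisation genes are 0.68 and 1.05 on the right.

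Markers of other marrow cells were read beside these results. Monocytes also carry several of the receptors, and the summed intensity of 11 monocyte and macrophage markers was 36762 to 39379 in Mac1lo cells, 5433.8 to 6475.5 in Mac1+ cells and 12975.7 to 19698.5 in neutrophils. Between 8 and 10 of them exceeded the odorant receptor limit on each array. Those at or under it on some array were Cx3cr1, C1qa and Mrc1, and 0 markers were listed at 0. At the earlier step 7 of these markers fell and 0 rose, and at the later step 3 rose and 2 fell. Over all genes 6.31% were called higher and 5.51% lower at the earlier step, and 19.7% and 28.4% at the later. Csf1r made most of the later change in the sum, at 484.9 to 714.9 in Mac1+ cells and 7111.9 to 12949.3 in neutrophils. Without it the other 10 markers summed to 28596.4 to 30582 in Mac1lo cells, 4926.7 to 5990.6 in Mac1+ cells and 5863.8 to 8073.5 in neutrophils.

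The sums of other marker lists also differed at the later step, where 19.7% of all genes were called higher and 28.4% lower. The 6 dendritic cell markers summed to 128.6 to 208.4 in Mac1+ cells and 1305.7 to 1540.5 in neutrophils, and 1 of them rose, Itgax (4.99 ± 0.22, adjusted p = 2.08e-07), an integrin chain. Itgax made most of the latter sum, reading 14.4 to 36 in Mac1+ cells and 1126.0 to 1285.2 in neutrophils. The 4 T and NK cell markers summed to 139 to 212.3 and 498.8 to 694.4, and 1 rose, Cd3d (2.78 ± 0.17, adjusted p = 1.32e-06), a chain of the T cell receptor complex. The 4 erythroid markers summed to 78.1 to 112.7 and 229.1 to 599.6, highest on neutrophil array 1, with 2 rising. Megakaryocyte markers (5) summed to 334 to 411.4 and 599.3 to 718, with 1 rising. Basophil and mast cell markers (5) went the other way, from 1152.7 to 1369.5 in Mac1+ cells to 89.1 to 155.8 in neutrophils, with 3 falling, as did B cell markers (5), from 743.8 to 916.2 to 196.8 to 581.4, with 1 falling. Eosinophil markers (5) summed to 218.7 at most on any array. The part of any of these marker lists in the receptor differences, at either step, was not tested.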

How the data were processed

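The deposited table holds 1 intensity per probe set and array for 45101 probe sets on a linear scale. Per the labels' protocols, cells were separated by magnetic columns and flow sorting, and RNA was amplified and biotin-labelled with the manufacturer's kit. How the authors summarised and scaled the deposited intensities was not stated in any source at hand.

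The 64 control probe sets were left out. Of the rest, 34945 were named for 1 gene by the platform annotation, 932 for several and 9160 for none. Of the gene names 99.4% matched RefSeq's gene table (GRCm38.p6), and 0 were changed. A gene measured by more than 1 probe set (9009 genes) was represented by its brightest on average. Intensities were analysed as log2(intensity + 16) with limma 3.58.1 in R 4.3.3 (lmFit and eBayes) over all 9 arrays and 18194 genes, with Benjamini-Hochberg adjustment over all genes and a threshold of 0.05. All adjusted p-values come from this fit or, where said, from the same fit over all probe sets. The script was tested on simulated data. The small number of arrays limits the precision.

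Genes outside the receptors were named by rule: up to 3 called genes with the largest difference per pathway list and comparison, the 3 most alike per receptor, and Kit and Itgam as checks of the sort. Marker lists are no pathway lists, so Cxcr2, Mpo, Csf1r, Itgax, Cd3d, Cx3cr1, C1qa and Mrc1 fall outside the rule. Ltf, Ngp, Elane, Prtn3 and Ctsg do too, as do Gnai2, Pik3cg and Hcar1. The 7 genes of the ligand list called lower at the later step also fall outside it. All of these were chosen after their values were seen. The receptors and lists were chosen with earlier results of these data known. Protein sequences had been planned and were not used here. Promoters are RefSeq's.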

Additional observations from a re-analysis of the deposited data

How the results depend on the processing

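Counts of receptor genes called higher were 4 between Mac1+ and Mac1lo cells under every alternative tried, 3 to 4 at the later step and 5 to 6 between Mac1lo cells and neutrophils. Over all genes, the fit of the compared populations alone called 2274 higher and 2235 lower between Mac1+ and Mac1lo cells, against 1148 and 1003. Leaving out 1 array at a time gave 710 to 2190 higher and 599 to 1986 lower, the upper values without neutrophil array 1, and 1181 to 2654 genes with a larger later step, against 1718. With every probe set on its own, which tests more features by construction, 8916 were higher and 9469 lower at the later step, 10113 and 10187 between neutrophils and Mac1lo cells, and 3417 and 5907 in the difference between the steps.

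Signs turned in differences that had not passed. C3ar1 between Mac1+ and Mac1lo cells ranged from -0.06 (without Mac1+ array 1) to 0.52 as single arrays were left out, and its difference between the steps was -0.30 with the mean of its probe sets. Ptafr there ranged from -0.12 to 0.05, the latter without Mac1+ array 3. Ltb4r1 at the later step was 0.24 with quantile normalization, and -0.26, 0.00 and 0.07 without neutrophil array 1, 2 or 3. The later call of C3ar1 was also lost with an offset of 64 (0.51, adjusted p = 0.0505), in the fit of the compared populations alone (adjusted p = 0.0775), and without Mac1lo array 1 (adjusted p = 0.0502) or Mac1+ array 3 (adjusted p = 0.0826). The cause was not tested. With each array centred on its median, the median gene stood at -0.15 at the later step, against 0.05. C3ar1 and Ptafr were not tested once dim genes were left out.

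The deviations of same-numbered arrays from their population means had correlations of -0.307 to 0.132. Between Mac1+ cells and neutrophils they were 0.132, 0.0458 and 0.0856. With 3 arrays per population these values cannot tell whether the numbers pair the samples, and nothing in the labels says that they do. With the replicate number as a block, the receptor genes called higher were 4, 4 and 6, as without it, and 868 and 795 of all genes were higher and lower between Mac1+ and Mac1lo cells.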
